A study of Homo sapiens with 12 samples.

Results

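The histone genes were followed across 12 RNA libraries of Z-138, a cell line from mantle cell lymphoma, a cancer of B cells. Members were the rows of the count table whose gene symbol starts with HIST and a digit. Such symbols name the replication-type genes and pseudogenes among them. The rule found 54 of 13820 rows: 5 of class H1, 14 of H2A, 16 of H2B, 9 of H3 and 10 of H4. HIST1H1PS1 (H1), HIST1H2APS4 (H2A) and HIST2H2BC (H2B) are annotated as pseudogenes and are kept in all counts of members. By symbol, 47 belong to the HIST1 cluster on chromosome 6, 6 to the HIST2 cluster on chromosome 1 and 1 to HIST4. The cells made an shRNA that was either a control or directed at SMARCA4, which encodes an ATPase of the SWI/SNF chromatin remodelling complexes. They received either the solvent DMSO or 3 µM ibrutinib, an inhibitor of the kinase BTK, plus 3 µM venetoclax, an inhibitor of BCL2. Doxycycline was present in all 4 groups, each of which had 3 libraries: control in DMSO, knockdown in DMSO, control under drugs and knockdown under drugs. Knockdown cannot be told apart from its construct, and it is not stated that replicates came from separate cultures; all p-values therefore rest on the spread among these libraries alone, which may be technical. Exposure times and the number of shRNA sequences or clones are not given in the sources used.

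Histones H2A, H2B, H3 and H4 form the protein core around which DNA is wound in the nucleosome, and H1 binds the linker DNA where it enters and leaves. Replication-type histone genes lie in clusters and are transcribed mainly in S phase, when new DNA is packaged. Their mRNAs end, as a rule, not in a poly(A) tail but in a short stem-loop that the protein SLBP binds, formed by a cut that needs the U7 small nuclear RNA. Some of these genes are also known to make polyadenylated mRNA that reads through the stem-loop. The QuantSeq kit primes on poly(A), so a count here marks a tailed RNA or one primed inside an A-rich stretch, and the counts do not separate the 2 kinds or measure the stem-loop mRNA.

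The sequences below show stem-loops and the A-richest stretches of reference transcripts. Reference transcripts (GENCODE release 29) matched all 54 members by symbol, and 23 hold a stem-loop of 16 bases, in 5 forms, while 25 have only coding models, in which none can be seen. In the models of the remaining members, HIST1H4C among them, no stem-loop was matched. An example of each form is given, with the stem-loop in capitals and 5 bases on each side. The A-richest stretch of 20 bases is printed for HIST1H4C and, for contrast, HIST1H4B.
HIST1H4B stem-loop: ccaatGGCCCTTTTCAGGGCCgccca
HIST1H4I stem-loop: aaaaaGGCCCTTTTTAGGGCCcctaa
HIST2H2AA3 stem-loop: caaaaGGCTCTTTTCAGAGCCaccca
HIST1H2BD stem-loop: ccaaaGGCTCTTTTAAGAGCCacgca
HIST1H2AG stem-loop: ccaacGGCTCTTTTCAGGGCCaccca
HIST1H4C A-richest stretch: aaaaaacaaaaacaaaaaaa
HIST1H4B A-richest stretch: aacatccaaggcatcaccaa
In HIST1H4C the stretch holds 18 A in 20 bases and is the very end of the 435-base model (positions 416 to 435, the coding part ending at 384). In HIST1H4B the stretch holds 9 A and lies inside the 438-base model (positions 76 to 95). Among members, HIST1H2BG had the highest value, 20 of 20, and it took 0.0513% of the summed histone counts. Without HIST1H4C and HIST1H2BG the range was 7 to 15, with a median of 11 over all members. Whether A content goes with the level of a gene was not tested. In 17 of the 23 models with a stem-loop, 100 or more bases follow it: 1022 in HIST1H4E, 1655 in HIST1H4H and 1128 in HIST1H2AC. Whether reads came from such extended ends cannot be read from gene counts.

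Library totals ran from 7279503 to 10151679 counts, apart from 22528537 in knockdown in DMSO replicate 3. In knockdown cells the SMARCA4 level was lower by log2 values of -1.77 (SE 0.06, adjusted p = 1.99e-21) in DMSO and -1.80 (SE 0.06, adjusted p = 1.96e-21) under drugs, from a mean of 577 to 170 and of 610 to 175 CPM (counts per 1000000, scaled by TMM, here and below). All 5 B cell markers had rows, and their summed level was 495 to 604 CPM in the control libraries and 243 to 278 CPM in the knockdown libraries. Of the T and NK cell markers, 3 of 7 had rows (CD3G, CD4 and PRF1, summed 17.5 to 21.4 CPM in control and 1.75 to 3.54 CPM in knockdown libraries), while CD3D, CD3E, CD8A and NKG7 had none. None of 5 monocyte markers had a row, and of 6 fibroblast and epithelial markers only COL1A1 did. It had 19.6 to 23.7 CPM in control cells in DMSO, 25.2 to 26.0 CPM in control cells under drugs and 14.2 to 15.1 CPM in the knockdown libraries. Ribosomal RNA rows took 9.16% ± 0.308, 10.5% ± 0.526, 10.6% ± 0.330 and 8.37% ± 1.01 of counts (SD, n = 3) in control and knockdown cells in DMSO and in control and knockdown cells under drugs. With the ribosomal RNA rows left out of the fit, the same members passed in every comparison below (6 and 18 for the knockdown in DMSO and under drugs, 5 and 4 for the drugs in control and knockdown cells, 0 for the interaction). The part of the marker shifts in the histone results was not tested. The column used for control under drugs replicate 1 names the control shRNA and the replicate but no treatment, and was assigned by elimination. Without it the calls for HIST1H4A under drugs in control cells and for HIST1H2AH under drugs with the knockdown were lost, HIST2H2AC was added to the latter comparison, and no other member's call changed.

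One gene, HIST1H4C (ENSG00000197061), which encodes histone H4, made up most of the histone signal. It took between 70.5% and 74.5% of all histone counts in each of the 12 libraries, out of 19055 to 64887 histone counts per library. Next came HIST1H1C, the gene of linker histone H1.2, with 12.5% of the summed histone counts, HIST1H1B (H1.5) with 2.40% and HIST1H1D (H1.3) with 2.15%. These are shares of counted 3′ tags, not levels per length. At the other end, 8 members did not pass the filter on low counts: HIST1H2AK, HIST1H2AM, HIST1H2APS4, HIST1H2BB, HIST1H2BE, HIST1H2BO, HIST1H3H and HIST1H3J. Of the 46 tested, 29 were above the filter's level of 1.15 CPM in all 12 libraries, and 8 reached it in all libraries of at most 1 group. For some of the latter a difference between groups was therefore part of being tested.

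Histone counts together were 0.310% ± 0.0165 of all counts in control cells in DMSO and 0.293% ± 0.00562 in knockdown cells in DMSO (SD, n = 3). Under drugs they were 0.313% ± 0.0271 in control and 0.268% ± 0.00865 in knockdown cells. The 3 knockdown libraries under drugs (0.262%, 0.277% and 0.263%) lay below the 3 control libraries under drugs (0.289%, 0.306% and 0.342%), and below all 6 DMSO libraries (0.288% to 0.329%). In bulk RNA primed on poly(A), fewer cells in S phase, less histone RNA per cell and fewer tailed or internally primed molecules cannot be told apart.

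**Figure D1:**
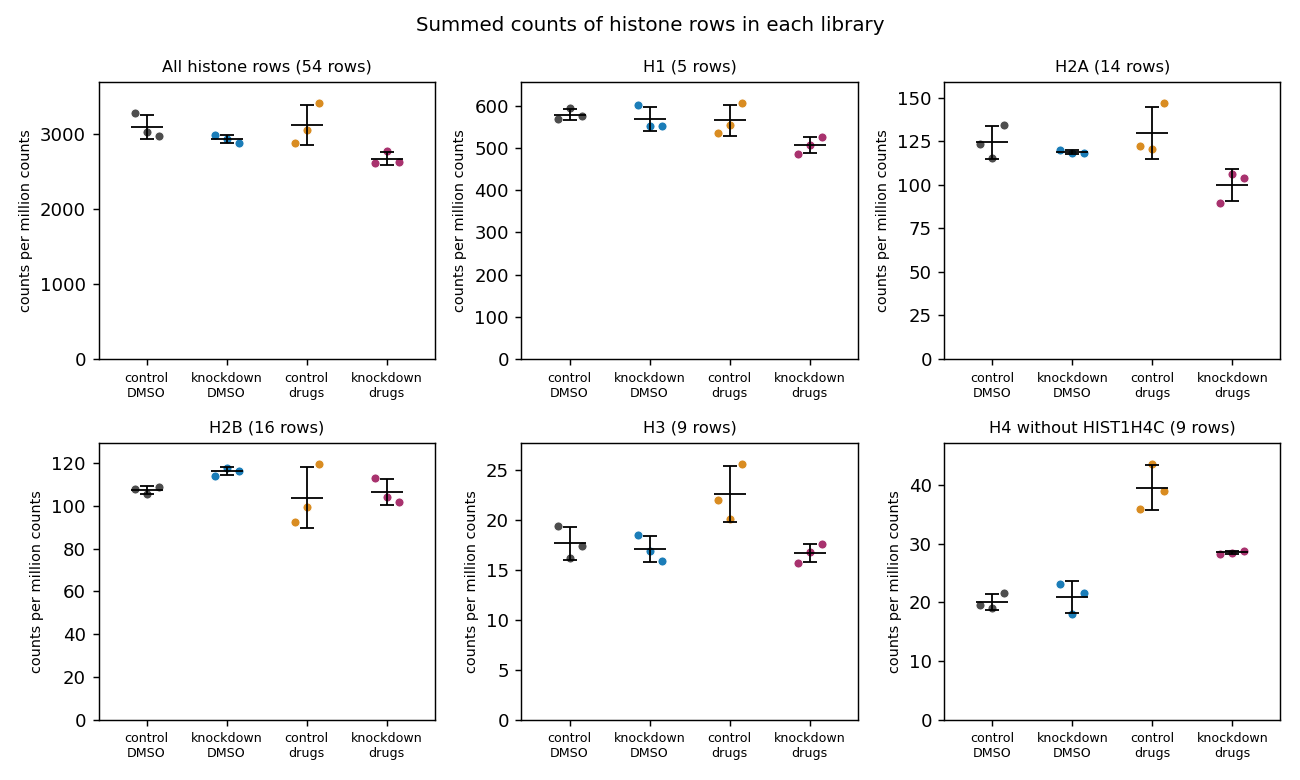
Summed CPM of the histone rows in each library, over raw totals (points), with mean and SD as black marks, for all 54 rows, for classes H1, H2A, H2B and H3, and for the 9 H4 rows other than HIST1H4C; each axis starts at 0. The 9 H4 rows are highest in control cells under drugs (36.0 to 43.6), whereas the sum over all rows is lowest in knockdown cells under drugs.

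The class sums differed in their pattern. The 9 H4 rows other than HIST1H4C summed to 20.03 ± 1.36 CPM (over raw totals) in control cells in DMSO, 20.9 ± 2.68 in knockdown cells in DMSO, 39.5 ± 3.87 in control cells under drugs and 28.5 ± 0.241 in knockdown cells under drugs (SD, n = 3). Both drug groups lay above both DMSO groups without overlap, and the control group under drugs lay above the knockdown group. The 14 H2A rows were lowest in knockdown cells under drugs, at 89.3, 106 and 104 CPM, with the other 9 libraries at 115 to 147. The 16 H2B rows overlapped between these groups, at 102 to 113 in knockdown and 92.2 to 120 in control cells under drugs.

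In control cells the drugs raised 5 members and lowered none: HIST1H4B (ENSG00000124529), HIST1H4E (ENSG00000198518), HIST1H4H (ENSG00000158406) and HIST1H4A (ENSG00000196176), which encode histone H4, and HIST1H3A (ENSG00000198366), which encodes H3. That is 5 of 46, where 1.29% of all 12602 genes tested passed in this comparison (0.738% higher, 0.555% lower; edgeR quasi-likelihood test, Benjamini-Hochberg adjustment). No member was lowered by edgeR, DESeq2 or limma-voom, and 2 were lower at an unadjusted p under 0.05 by edgeR, a level that 10.0% of all genes reached in either direction. All 10 H4 members had positive values, with a median log2 fold change of 0.90, beside 0.26 over the 46 members and 0.00 over all genes. Of these, HIST1H4B, HIST1H4A and HIST1H4D were above the filter's level in every library only of groups under drugs. A positive value was therefore in part tied to their being tested, and the count and the median include them. Medians were 0.45 for the 7 H3 members, 0.19 for the 13 H2B, 0.18 for the 11 H2A and 0.08 for the 5 H1. None of the 29 members of classes H1, H2A and H2B passed by any of the 3 tools, with 7 at an unadjusted p under 0.05 by edgeR.

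HIST1H4B had 0.20, 0.845 and 1.19 CPM in the control libraries in DMSO and 4.31, 5.04 and 5.68 CPM under drugs. The groups lay far apart, and the drugs raised the gene by 2.78 in log2 units (SE 0.38, adjusted p = 1.4e-05). The DMSO values rest on 2, 7 and 10 counts, and the gene was above the filter's level in every library of the groups under drugs alone, so it was tested only through the groups where it is high. HIST1H4E had 2.70, 2.90 and 3.10 CPM in DMSO and 6.06, 8.395 and 6.77 CPM under drugs, a rise of 1.28 (SE 0.23, adjusted p = 0.000711). HIST1H4H had 3.30, 2.174 and 3.22 CPM in DMSO and 5.83, 7.75 and 6.29 CPM under drugs, a rise of 1.17 (SE 0.24, adjusted p = 0.00561). In both genes each library under drugs exceeded each DMSO library. The call for HIST1H4H was lost without control in DMSO replicate 2 (adjusted p = 0.0647) or control under drugs replicate 2 (adjusted p = 0.0614).

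HIST1H3A had 1.60, 1.09 and 1.43 CPM in DMSO and 6.53, 3.75 and 5.20 CPM under drugs in control cells, so it rose by 1.89 (SE 0.30, adjusted p = 0.000154) without overlap. HIST1H4A, named because it was 1 of the 5 and after its values were seen, had 0.70, 0.966 and 1.07 CPM in DMSO and 2.56, 2.07 and 2.90 CPM under drugs, a rise of 1.47 (SE 0.37, adjusted p = 0.0341). It passed the low-count filter in every library of the control group under drugs alone, and its call was the least secure of the 5. Left out singly, control in DMSO replicate 1, 2 or 3 gave adjusted p = 0.246, 0.111 and 0.0665, and control under drugs replicate 1 or 3 gave 0.126 and 0.149. DESeq2 gave 0.12. Against these, HIST1H4C had 2485, 2182 and 2153 CPM in DMSO and 2121, 2274 and 2590 CPM under drugs, a difference of 0.03 (95% interval -0.08 to 0.15) with overlapping groups. HIST1H4J, another H4 gene, had 6.10, 4.59 and 6.92 CPM and then 6.99, 7.36 and 7.98 CPM, a difference of 0.34 (SE 0.18, adjusted p = 0.558). Because HIST1H4J shares a run of 312 identical bases with another histone gene, its counts are uncertain.

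**Figure D2:**
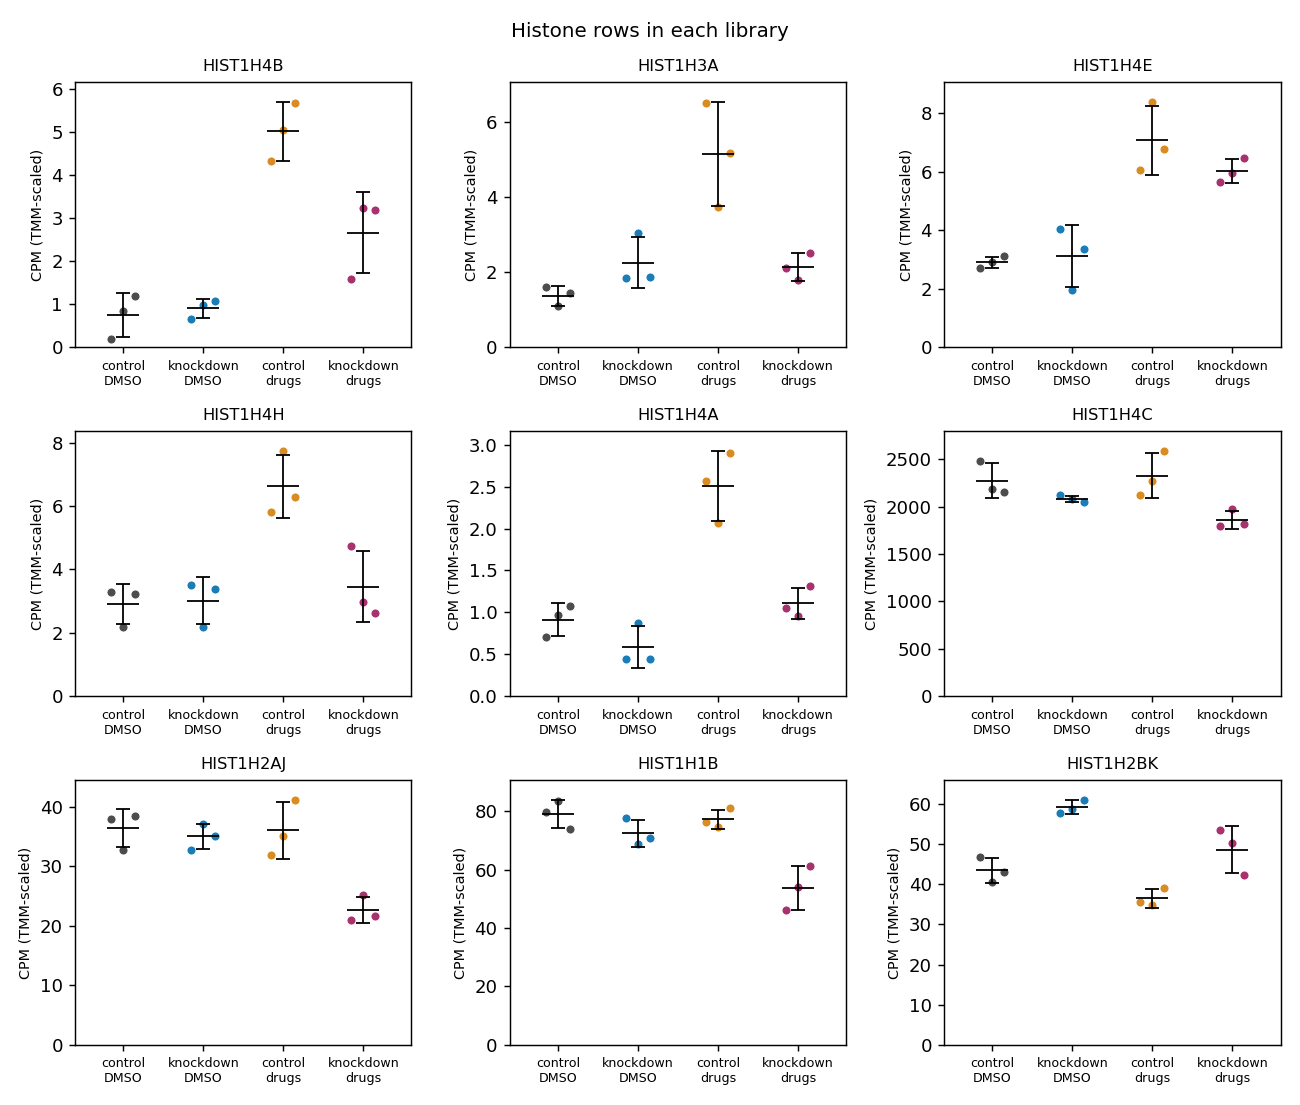
TMM-scaled CPM of 9 histone genes in each of the 12 libraries (points), by group, with mean and SD as black marks; each axis starts at 0. HIST1H4B, HIST1H3A, HIST1H4E, HIST1H4H and HIST1H4A have their highest mean in control cells under drugs, HIST1H2AJ and HIST1H1B have their lowest mean in knockdown cells under drugs, and HIST1H2BK is higher in knockdown than in control cells under both treatments.

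Promoters of 4 of the 5 raised members are shown, since members that moved together can be compared there. They come from the RefSeq promoter table (GRCh38.p14, 250 bases before to 50 after the start), which held 46 of the 54 members; HIST1H4A and HIST1H4C have no entry in it. Capitals mark matches, on either strand, to GGTCCG (the core of a site known in H4 promoters and bound by HINFP), CCAAT or TATAAA. HIST1H4B lies at chr6:26027234-26027533 on the minus strand, HIST1H4E at chr6:26204360-26204659 on the plus strand, HIST1H4H at chr6:26285485-26285784 on the minus strand and HIST1H3A at chr6:26020201-26020500 on the plus strand.
HIST1H4B: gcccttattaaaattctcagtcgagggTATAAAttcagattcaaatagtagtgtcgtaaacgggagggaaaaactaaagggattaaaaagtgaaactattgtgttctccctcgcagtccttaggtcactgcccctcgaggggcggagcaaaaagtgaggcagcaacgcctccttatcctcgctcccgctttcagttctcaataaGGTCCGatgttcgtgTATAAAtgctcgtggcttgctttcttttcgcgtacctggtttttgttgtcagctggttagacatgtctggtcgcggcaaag
HIST1H4E: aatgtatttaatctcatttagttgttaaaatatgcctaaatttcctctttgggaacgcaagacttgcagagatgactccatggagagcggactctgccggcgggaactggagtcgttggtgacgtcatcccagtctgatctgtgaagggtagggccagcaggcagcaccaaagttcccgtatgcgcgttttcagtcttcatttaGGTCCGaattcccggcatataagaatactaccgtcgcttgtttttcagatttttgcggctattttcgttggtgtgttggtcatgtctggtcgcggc
HIST1H4H: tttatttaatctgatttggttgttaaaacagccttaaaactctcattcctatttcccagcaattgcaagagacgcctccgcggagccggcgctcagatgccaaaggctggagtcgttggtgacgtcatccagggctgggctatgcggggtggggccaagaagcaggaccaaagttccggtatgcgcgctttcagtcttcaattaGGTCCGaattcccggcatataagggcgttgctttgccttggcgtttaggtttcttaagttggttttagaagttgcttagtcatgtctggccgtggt
HIST1H3A: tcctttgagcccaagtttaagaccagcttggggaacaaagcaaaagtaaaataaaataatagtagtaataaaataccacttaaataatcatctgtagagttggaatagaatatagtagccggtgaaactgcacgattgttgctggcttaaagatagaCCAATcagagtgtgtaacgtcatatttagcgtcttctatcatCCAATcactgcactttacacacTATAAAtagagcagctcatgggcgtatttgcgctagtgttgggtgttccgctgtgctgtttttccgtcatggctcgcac
GGTCCG was found in all 8 H4 promoters in the table, in 0 of 4 H1, 1 of 12 H2A, 1 of 15 H2B and 1 of 7 H3 promoters; 11.3% of all 35116 promoters hold it. Those H4 promoters include genes that passed for the drugs in control cells and genes that did not. Whether GGTCCG goes with the drug response was not tested. CCAAT was in 40 of 46 member promoters, against 34.6% of all, and TATAAA in 31 of 46, against 11.5% of all. The octamer ATTTGCAT, known as a site of POU2F1 (Oct-1) in H2B promoters, was in 13 of 15 H2B, 9 of 12 H2A, 1 of 7 H3 and 0 of 8 H4 promoters, against 1.77% of all. TGANTCA, the AP-1 motif, was in 1 of 46 (7.71% of all) and the E2F core TTTGGCGC in 0 of 46 (0.652% of all). In HIST1H4B, TATAAA occurs at 2 places, and in the printed promoters no 2 motifs overlap. A match is a description of letters only.

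In knockdown cells the drugs raised 2 members and lowered 2, of 46, where 1.29% of all genes passed (0.738% higher, 0.548% lower). HIST1H4B had 0.656, 0.977 and 1.06 CPM in DMSO and 1.57, 3.22 and 3.18 CPM under drugs, a rise of 1.50 in log2 units (SE 0.36, adjusted p = 0.0254). HIST1H4E had 4.05, 1.95 and 3.37 CPM in DMSO and 5.64, 5.97 and 6.47 CPM under drugs, a rise of 0.93 (SE 0.21, adjusted p = 0.018). The groups did not overlap in either gene. The call for HIST1H4B was lost without any of the 3 knockdown libraries in DMSO (adjusted p = 0.111, 0.0653 and 0.0736 for replicates 1 to 3), without knockdown under drugs replicate 2 or 3 (0.114 and 0.172), and with limma-voom (0.0588). That for HIST1H4E was lost without knockdown in DMSO replicate 2 or 3 (0.105 and 0.0571) or knockdown under drugs replicate 3 (0.102).

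The 2 lowered members were HIST1H2AJ, which encodes an H2A, and HIST1H1B. HIST1H2AJ had 32.8, 37.1 and 35.2 CPM in DMSO and 20.998, 25.2 and 21.7 CPM under drugs, so it fell by 0.63 (SE 0.10, adjusted p = 0.000144). HIST1H1B had 77.7, 68.7 and 71.0 CPM in DMSO and 46.2, 54.0 and 61.3 CPM under drugs, so it fell by 0.42 (SE 0.08, adjusted p = 0.00197). Neither pair of groups overlapped, and both calls held in all 21 alternatives, including each library left out. HIST1H2AJ shares a run of 332 identical bases with HIST1H2AI, so reads from that run could fall to either. The median over the 46 members was -0.13, beside 0.00 over all genes, with 29 of 46 negative. At an unadjusted p under 0.05 there were 12 members, beside 10.4% of all genes.

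Whether the drug effect differed between knockdown and control cells was tested as an interaction (knockdown minus control), and 0 of 46 members passed by edgeR, DESeq2 or limma-voom. In all, 0.0238% of genes passed by edgeR (0.00794% higher, 0.0159% lower). At an unadjusted p under 0.05 edgeR gave 12 members, 11 with a smaller or more negative drug effect in knockdown cells and 1 with a larger one, where 5.35% of all genes were at that level. The difference was negative for 39 of 46 members, with a median of -0.39, beside 0.00 over all genes. It was negative for all 10 H4 and all 5 H1 members. HIST1H4A and HIST1H4D were above the filter's level in every library of control cells under drugs alone, so their sign was in part tied to being tested. HIST1H3A differed by -1.91 (95% interval -2.75 to -1.07, adjusted p = 0.151) and HIST1H2AJ by -0.61 (-0.88 to -0.34, adjusted p = 0.151). For HIST1H4B the difference was -1.28 (-2.37 to -0.19, adjusted p = 0.914), and for HIST1H4E -0.36 (-0.97 to 0.26). The single member at an unadjusted p under 0.05 with a larger drug effect in knockdown cells was HIST1H2AI, at 1.89 (adjusted p = 0.573), which rests on 4 to 14 counts per library. A difference between control and knockdown cells in the drug response of a single member was therefore not shown.

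**Figure D3:**
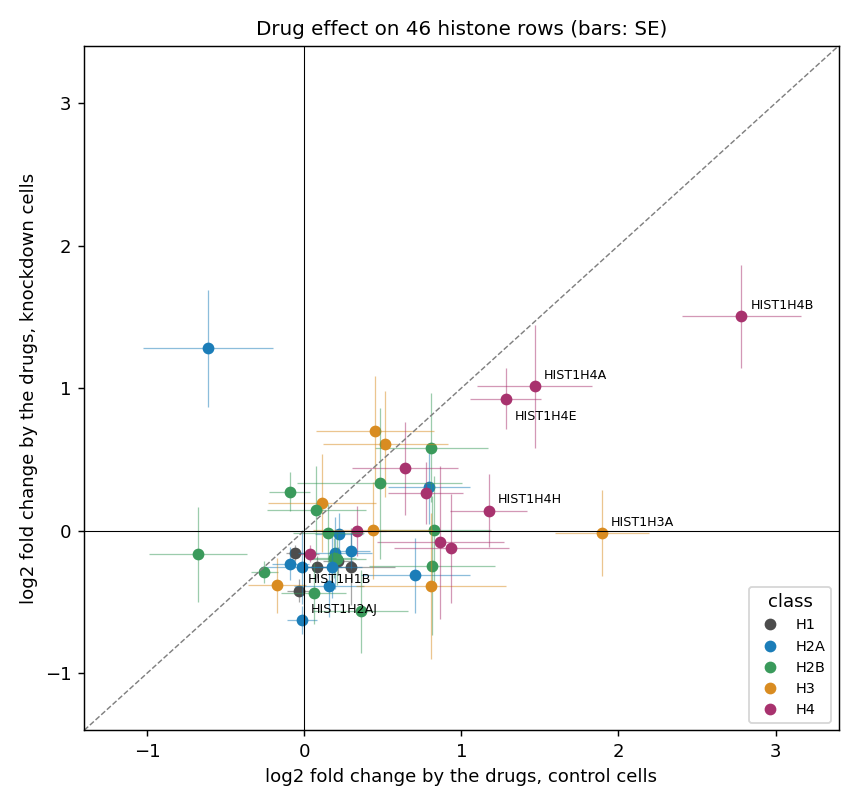
Log2 fold change by the drugs in knockdown cells (vertical) against that in control cells (horizontal) for the 46 tested histone rows, coloured by class, with SE bars and a dashed line of equal effects; genes past the threshold in either are named. Most points lie below the dashed line, 39 of 46, and HIST1H4B, HIST1H3A, HIST1H4A, HIST1H4E and HIST1H4H lie farthest to the right.

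In DMSO the knockdown raised 2 members and lowered 4 of 46, where 31.3% of all genes passed (15.1% higher, 16.2% lower). At an unadjusted p under 0.05 there were 10 members, beside 40.3% of all genes. With library totals in place of scaling factors the split was 3 higher and 3 lower. The share of members past the threshold was thus below that of all genes, and the median over members was -0.05, beside 0.00, and 0.02 without control in DMSO replicate 3. HIST1H2BK, an H2B gene known to make polyadenylated mRNA too, had 46.8, 40.6 and 43.1 CPM in control and 57.7, 58.7 and 61.1 CPM in knockdown libraries, a rise of 0.45 (SE 0.08, adjusted p = 5.12e-05). HIST1H2AC, an H2A gene of the same kind, had 0.90, 1.69 and 2.75 CPM in control and 5.80, 4.34 and 3.95 CPM in knockdown libraries, a rise of 1.39 (SE 0.30, adjusted p = 0.000555). Neither overlapped, and both calls held in every alternative in which the gene was tested (21 and 20).

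The 4 lowered members in DMSO were HIST1H2BH, HIST1H2BN, HIST1H2AI and HIST2H2AB. HIST1H2BH, an H2B gene, had 16.2, 15.1 and 20.2 CPM in control and 11.6, 10.4 and 11.7 CPM in knockdown libraries, so it fell by 0.60 (SE 0.13, adjusted p = 0.000476), a call that held in all 21 alternatives. HIST2H2AB, an H2A gene of the chromosome 1 cluster, had 16.4, 13.5 and 13.5 CPM and then 12.6, 10.96 and 11.04 CPM, so it fell by 0.35 (SE 0.12, adjusted p = 0.0264). It overlaps BOLA1 on the opposite strand, and the strand setting of the counting is not given in the sources used. Its call was lost without control replicate 1 (adjusted p = 0.245), knockdown replicate 2 (0.0708) or knockdown replicate 3 (0.132) in DMSO, and by DESeq2 (0.0713).
HIST1H2AI, which shares the 332-base run with HIST1H2AJ, had 14, 11 and 10 counts in control libraries and 5, 4 and 13 counts in knockdown libraries, the last being the deepest library, and was above the filter's level in every library of only 2 groups, control in DMSO among them; in CPM these were 1.40, 1.33 and 1.19 against 0.547, 0.434 and 0.576. It fell by 1.28 (SE 0.41, adjusted p = 0.0157), a call lost without control replicate 1 (0.0657) or knockdown replicate 3 (0.0522) and by DESeq2 (0.0542). HIST1H2BN had 3.10, 5.43 and 3.70 CPM in control and 1.64, 3.04 and 2.39 CPM in knockdown libraries, and its fall of 0.77 (SE 0.29, adjusted p = 0.0439) was lost in 7 of 20 alternatives, with adjusted p up to 0.272. These included leaving out control in DMSO replicate 2 or 3, knockdown in DMSO replicate 1 or 3, or knockdown under drugs replicate 1. It overlaps HIST1H2AL on the same strand. No H1, H3 or H4 member passed in DMSO by edgeR, DESeq2 or limma-voom, with 1 of each class at an unadjusted p under 0.05 by edgeR. HIST1H4C was at -0.13 (SE 0.06, adjusted p = 0.116).

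Under drugs the knockdown lowered 17 members and raised 1 of 46, where 31.1% of all genes passed (14.8% higher, 16.3% lower). At an unadjusted p under 0.05 there were 23 members, beside 40.4% of all genes. Negative values were found in 41 of 46 members, with a median of -0.38, beside 0.00 over all genes. All 10 H4 and all 5 H1 members were negative. HIST1H4A, HIST1H4D and HIST1H2BI, all among the 17, were above the filter's level in every library of the control group under drugs alone. A negative value was therefore in part tied to their being tested, and these counts and the median include them. By class, 3 of 5 H1, 4 of 11 H2A, 3 of 13 H2B, 2 of 7 H3 and 5 of 10 H4 members fell. This comparison uses the same control libraries under drugs as the drug comparison in control cells, so the 2 sets of calls are not independent: HIST1H4B, HIST1H4H, HIST1H4A and HIST1H3A are in both. With library totals in place of scaling factors, the median of all genes moved from 0.00 to 0.08 and 13 members fell and 1 rose.

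**Figure D4:**
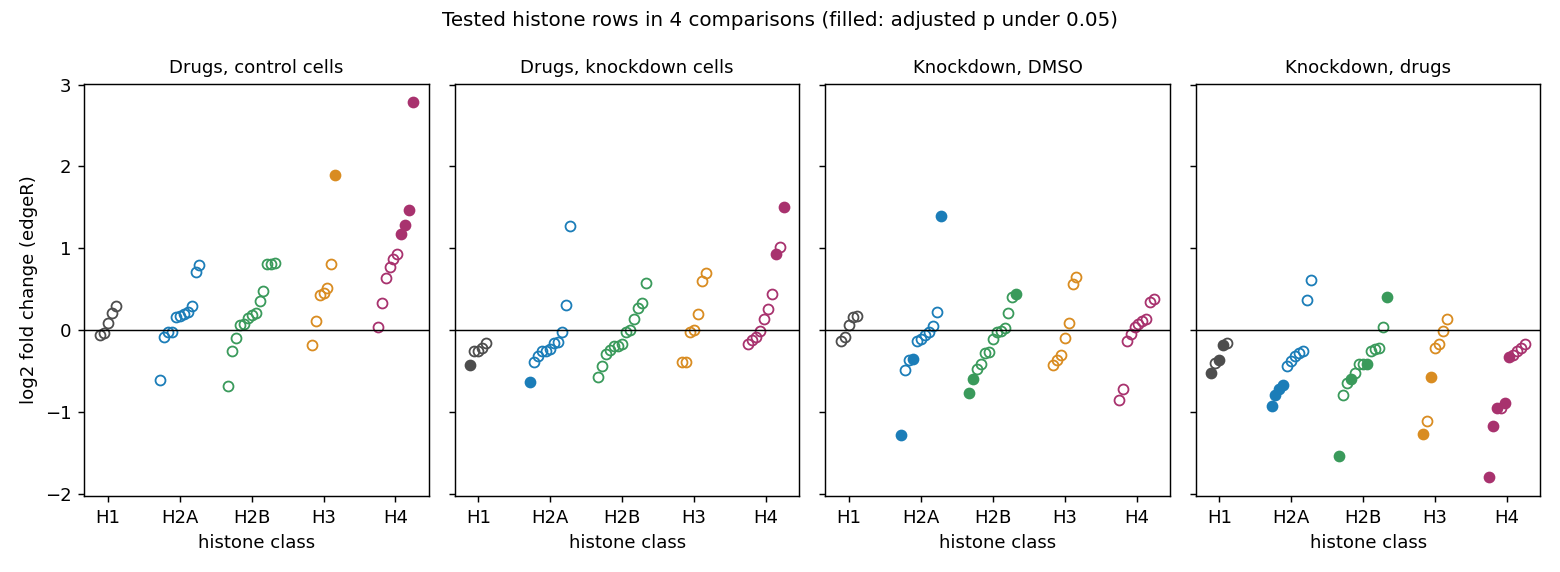
Log2 fold change of each of the 46 tested histone rows (points) in 4 comparisons, arranged by class and ordered by value within it; filled points passed the threshold. The H4 points are all above 0 for the drugs in control cells and all below 0 for the knockdown under drugs, which share the control libraries under drugs. Some H4 rows were tested only through groups under drugs, so their signs were in part tied to being tested.

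HIST1H4C had 2121, 2274 and 2590 CPM in control and 1800, 1974 and 1812 CPM in knockdown libraries under drugs, so it fell by 0.32 (SE 0.06, adjusted p = 0.0001). HIST1H4H fell by 0.95 (SE 0.24, adjusted p = 0.00255), from 5.83, 7.75 and 6.29 CPM to 4.72, 2.98 and 2.63 CPM. HIST1H4D, a further H4 gene, fell by 1.80 (SE 0.47, adjusted p = 0.00319), from 1.52, 2.45 and 2.42 CPM to 1.18, 0.477 and 0.219 CPM. None of these 3 overlapped between groups, and their calls held in every alternative tested. HIST1H4D passed the low-count filter in every library of the control group under drugs alone. HIST1H4A fell by 1.17 (SE 0.36, adjusted p = 0.0117) and HIST1H4B by 0.89 (SE 0.30, adjusted p = 0.021). The call for HIST1H4B was lost without control under drugs replicate 2 (0.052) or 3 (0.0861) or knockdown under drugs replicate 1 (0.14), and that for HIST1H4A without control under drugs replicate 3 (0.056) or knockdown under drugs replicate 2 (0.0534). HIST1H4E, raised by the drugs in both cell types, was at -0.22 (SE 0.20, adjusted p = 0.447).

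Among H3 genes, HIST1H3A had 6.53, 3.75 and 5.20 CPM in control and 2.10, 1.79 and 2.52 CPM in knockdown libraries under drugs, so it fell by 1.27 (SE 0.28, adjusted p = 0.000663). HIST1H3C, the H3 member with the highest mean, had 5.94, 6.59 and 8.82 CPM and then 4.72, 4.77 and 4.83 CPM, and it fell by 0.57 (SE 0.20, adjusted p = 0.0285). Both were lower without overlap. The first call held in all 20 alternatives, and the second was lost in 7 of 21, with adjusted p up to 0.216 without control under drugs replicate 3. Leaving out any of the 3 knockdown libraries under drugs also ended it (0.0722, 0.0648 and 0.0612 for replicates 1 to 3).

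Among H2A genes, HIST1H2AJ went from 31.8, 35.1 and 41.2 CPM in control to 20.998, 25.2 and 21.7 CPM in knockdown libraries under drugs, so it fell by 0.67 (SE 0.10, adjusted p = 5.56e-06). HIST2H2AB went from 18.4, 17.4 and 17.8 to 9.32, 10.5 and 11.2 CPM, so it fell by 0.78 (SE 0.13, adjusted p = 1.22e-05). HIST2H2AA3 went from 6.06, 7.49 and 7.49 to 3.28, 3.70 and 4.06 CPM, so it fell by 0.92 (SE 0.21, adjusted p = 0.00106). All 3 were lower in each knockdown library than in each control library, and the calls held in all 21 alternatives. The whole 549-base model of HIST2H2AA3 is identical to a stretch of another histone gene, so its counts cannot be assigned to 1 copy. HIST2H2AC, the H2A gene with the next highest mean after HIST1H2AJ, was at -0.25 (SE 0.12, adjusted p = 0.121), with 27.98, 29.3 and 43.0 CPM in control and 24.7, 29.5 and 29.8 CPM in knockdown libraries. Without control under drugs replicate 1 it passed.

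HIST1H2BK was the single member that rose, from 35.6, 34.9 and 39.2 CPM in control to 53.5, 50.3 and 42.2 CPM in knockdown libraries under drugs, by 0.41 (SE 0.09, adjusted p = 0.000438). Of the other H2B genes, HIST1H2BI fell by 1.53 (SE 0.45, adjusted p = 0.00822), from 1.75, 1.81 and 2.05 CPM to 0.525, 0.836 and 0.549 CPM. It too passed the low-count filter in every library of the control group under drugs alone. HIST1H2BD fell by 0.41 (SE 0.15, adjusted p = 0.0303), from 12.01, 12.4 and 17.9 CPM to 10.2, 10.1 and 11.4 CPM. That call was lost in 6 of 21 alternatives, with adjusted p of 0.362 without control under drugs replicate 3, and 0.0918 and 0.0916 without knockdown under drugs replicate 1 and 2. HIST1H2BH, lowered in DMSO, was at -0.23 (SE 0.14, adjusted p = 0.201) under drugs, and the difference between the 2 knockdown effects was 0.37 (SE 0.19, adjusted p = 0.922).

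Of the 5 H1 members, the pseudogene HIST1H1PS1 included, 3 fell. HIST1H1B had 76.4, 74.7 and 81.0 CPM in control and 46.2, 54.0 and 61.3 CPM in knockdown libraries under drugs, so it fell by 0.52 (SE 0.08, adjusted p = 8.49e-06). HIST1H1D had 68.8, 62.6 and 85.2 CPM and then 47.1, 54.0 and 66.2 CPM, so it fell by 0.37 (SE 0.10, adjusted p = 0.00421) with overlap between the groups. HIST1H1C had 349, 382 and 409 CPM and then 327, 341 and 340 CPM, so it fell by 0.18 (SE 0.06, adjusted p = 0.0184). The first call held in all 21 alternatives. That for HIST1H1D was lost without control under drugs replicate 3 (0.0782) or knockdown under drugs replicate 1 (0.0623). That for HIST1H1C was lost with library totals (0.196) and without control under drugs replicate 2 (0.0507), control under drugs replicate 3 (0.157) or knockdown under drugs replicate 1 (0.0932).

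Of the 46 tested members, 23 passed in none of these 4 comparisons. They include 4 H4 genes, 2 of which are given here after their values were seen. HIST1H4L had 2.90, 3.02 and 2.39 CPM in control cells in DMSO and 5.13, 4.65 and 4.47 CPM under drugs, which do not overlap, at a log2 value of 0.77 (SE 0.24, adjusted p = 0.129). HIST4H4 had 1.30, 1.09 and 0.955 CPM in DMSO and 1.98, 3.10 and 1.45 CPM under drugs in control cells, at 0.94 (SE 0.37, adjusted p = 0.329). In knockdown cells under drugs HIST4H4 had 1.44, 1.07 and 0.878 CPM, at -0.94 against control cells (SE 0.37, adjusted p = 0.0538). HIST4H4 was above the filter's level in 7 libraries, and the control group under drugs was the only group with every library above it.

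H2A and H2B genes often lie head to head and share the sequence between their starts. The annotation holds 17 such pairs within 1000 bases, and in 8 of them both genes had rows. HIST1H2BK and HIST1H2AH start 331 bases apart; under drugs the knockdown raised the first by 0.41 and lowered the second by 0.72 (SE 0.25, adjusted p = 0.0273). The call for HIST1H2AH was lost without control under drugs replicate 1 or 3 or knockdown under drugs replicate 1 or 2. The gene, chosen after its values were seen, had 7.11, 4.65 and 6.41 CPM in control and 2.49, 3.58 and 4.83 CPM in knockdown libraries, which overlap. HIST1H2BC and HIST1H2AC start 219 bases apart; in DMSO the knockdown raised HIST1H2AC by 1.39, and HIST1H2BC was at -0.01. Under drugs the knockdown values were -0.67 and -0.79 for HIST1H2AJ and HIST1H2BM, and -0.52 and -0.43 for HIST1H2BJ and HIST1H2AG. They were -0.64 and -0.27 for HIST1H2BG and HIST1H2AE, and 0.04 and -0.25 for HIST2H2BE and HIST2H2AC. HIST1H2BC and HIST1H2AC were at -0.41 and 0.37. Of these members only HIST1H2AJ passed there. The difference between partners was not tested. The HIST1H2BK promoter (chr6:27146809-27147108, minus strand, RefSeq, GRCh38.p14) is printed for its pair with HIST1H2AH. Capitals mark the octamer ATTTGCAT, CCAAT and TATAAA on either strand, and TATAAA matches on opposite strands overlap each other there.
HIST1H2BK: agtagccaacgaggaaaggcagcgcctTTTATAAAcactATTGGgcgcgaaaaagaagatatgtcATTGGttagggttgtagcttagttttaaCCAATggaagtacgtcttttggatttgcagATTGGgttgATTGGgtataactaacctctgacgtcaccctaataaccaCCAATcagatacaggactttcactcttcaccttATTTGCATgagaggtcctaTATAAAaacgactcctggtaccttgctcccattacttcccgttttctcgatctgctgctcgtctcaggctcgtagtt

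Of 9 listed histone genes known to also make polyadenylated mRNA, 8 were tested. In DMSO the knockdown raised 2 (HIST1H2BK and HIST1H2AC) by each of edgeR, DESeq2 and limma-voom and lowered none, with none lower at an unadjusted p under 0.05 by edgeR, and under drugs it raised 1 and lowered 2 (HIST1H2BD and HIST1H1C). These are 25% and 37.5% of the 8, beside 31.3% and 31.1% of all genes. Their medians were 0.17 and -0.29, beside -0.05 and -0.38 over the 46 members. For the drugs none of the 8 passed by edgeR or DESeq2 in either cell type, beside 1.29% of all genes by edgeR in each. By limma-voom 1 was lower in knockdown cells. At an unadjusted p under 0.05 edgeR gave 2 of the 8 in each cell type, beside 10.0% and 10.4% of all genes. The medians were 0.20 in control and -0.20 in knockdown cells.

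Other RNAs made without a poly(A) tail, such as small nuclear RNAs and RNA polymerase III products, were read beside the histones. The drugs raised 6 of 18 tested in control cells and 4 of 18 in knockdown cells (edgeR; 5 and 3 by DESeq2, 5 and 4 by limma-voom) and lowered none by these tools. Of all genes, 0.738% were raised in each cell type. At an unadjusted p under 0.05, 15 and 6 were higher and 0 lower by edgeR, beside 10.0% and 10.4% of all genes in either direction. Medians were 0.89 and 0.38. SCARNA2, a guide RNA of Cajal bodies, went from a mean of 5.74 to 37.2 CPM in control cells (2.69, SE 0.13, adjusted p = 1.05e-15), and RN7SK, the 7SK RNA, rose by 3.23 (SE 0.19, adjusted p = 1.87e-13). RNU6ATAC, a minor spliceosome RNA, rose by 3.19 (SE 0.41, adjusted p = 6.47e-06) and RPPH1, the RNA of RNase P, by 1.04 (SE 0.14, adjusted p = 1.68e-05). In knockdown cells the 4 were SCARNA2 (1.95), RN7SK (2.51), RNU6ATAC (1.67) and RNU11 (0.93). Under drugs the knockdown lowered 5 of the 18 and raised 1, with a median of -0.60, and in DMSO it raised 2 and lowered 1, beside 31.1% and 31.3% of all genes past the threshold.

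Genes that make, process or decay histone mRNA, and other genes around DNA replication and chromatin, were tested for the drugs in the same fit. The 6 lists covered variant histones, histone mRNA synthesis and 3′ processing, histone mRNA decay and histone chaperones. They also covered S phase and DNA replication, and poly(A) polymerases with the nuclear exosome. Of their 115 tested genes, 0 passed by edgeR in either cell type, beside 1.29% of all genes in each. DESeq2 gave 0 and 0, and limma-voom 0 and 1. By edgeR, 10 and 21 were at an unadjusted p under 0.05 in control and knockdown cells, beside 10.0% and 10.4% of all genes. SLBP, the stem-loop binding protein, named here for its role, was at 0.09 (SE 0.08) in control and 0.00 (SE 0.08) in knockdown cells. NPAT, the coactivator of histone genes, was at 0.18 (SE 0.13) and 0.28 (SE 0.13), and HINFP at 0.60 (SE 0.20, adjusted p = 0.188) and -0.05 (SE 0.19).

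With the knockdown, genes in these lists moved both ways. For all genes the share past the threshold was 31.3% in DMSO and 31.1% under drugs (15.1% and 14.8% higher, 16.2% and 16.3% lower), against which the counts of these lists are to be read. Of 19 genes of synthesis and 3′ processing, 3 rose and 2 fell in DMSO, and 5 rose and 1 fell under drugs. ZNF473, a zinc finger protein of the U7 particle, rose by 0.51 (SE 0.08, adjusted p = 1.19e-05) and 0.43 (SE 0.09, adjusted p = 0.000173), and POU2F1 by 0.37 (SE 0.07, adjusted p = 9.21e-05) and 0.42 (SE 0.07, adjusted p = 2.49e-05). CPSF3, the nuclease that makes the cut, fell by 0.22 in DMSO, and SYMPK, its scaffold, fell by 0.22 under drugs. Of 15 genes of histone mRNA decay, 1 rose and 1 fell in DMSO, and 1 rose and 2 fell under drugs: ZCCHC11, which adds uridines to RNA ends, rose by 0.30 and 0.42, LSM3 fell by 0.16 in DMSO, and the helicase UPF1 and its partner UPF2 fell by 0.18 and 0.26 under drugs.

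Variant histones are, as a rule but not in every case, made outside S phase as well and from polyadenylated mRNA. Among 9 tested variant histones, 1 rose and 5 fell in DMSO, and 1 rose and 4 fell under drugs. H1FX, a linker histone variant, rose by 0.59 (SE 0.08, adjusted p = 3.02e-07) and 0.54 (SE 0.08, adjusted p = 1.88e-06). H2AFZ (H2A.Z) fell by 0.28 in DMSO (SE 0.05, adjusted p = 0.000111) and was at -0.11 under drugs, and H3F3B (H3.3) fell by 0.24 and 0.15. H2AFY (macroH2A) fell by 0.25 and 0.33. Of 23 chaperones, 4 rose and 6 fell in DMSO, and 3 rose and 7 fell under drugs: CHAF1A, of the CAF-1 complex that deposits new H3 and H4, fell by 0.35 and 0.37, RBBP7 by 0.33 and 0.30, and HJURP, the chaperone of CENPA, by 0.24 and 0.36. Of 31 S phase genes, 2 rose and 9 fell in DMSO, and 2 rose and 6 fell under drugs. TYMS, of nucleotide synthesis, fell by 0.22 (SE 0.05, adjusted p = 0.00109) and 0.24 (SE 0.05, adjusted p = 0.00048), and CDK2, a kinase of the G1 to S transition, rose by 0.29 and 0.21. Of 18 genes of the poly(A) polymerase and exosome list, 1 fell in DMSO (ZC3H18, by 0.21), and 4 fell and 1 rose under drugs, among them SKIV2L2, the exosome helicase, by 0.24.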

How the data were processed

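RNA of 12 Z-138 libraries was read with QuantSeq 3′ tags. The authors deposited raw counts per gene, made with bcl2fastq 2.17.1.14, HISAT2 and HTSeq on hg19, per the submitters' processing notes; the strand setting, annotation and filters are not given in the sources used. In R 4.3.3, edgeR 4.0.16 (TMM scaling, quasi-likelihood test) fitted 1 mean per group to all 12602 of 13820 genes kept by its filter (minimum count 10, total 15), and p-values were adjusted by Benjamini-Hochberg over them at 0.05. DESeq2 1.42.0 and limma 3.58.1 (voom) were alternatives, with other scalings, filters, a replicate block and each library left out. The test was checked on simulated data in which only genes above 5 CPM were changed, so the check does not cover lower counts. The biological coefficient of variation was 5.69%.

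Members and gene lists were chosen with earlier results of these data known. Values by library are given for the 2 members of each class with the highest mean and, per comparison, up to 3 per class with the smallest adjusted p, and for other lists up to 4 genes; exceptions are marked. HIST1H2BF passed for the knockdown under drugs and is given only in counts. One column was assigned by elimination. No deposited count column was left unused. RefSeq and GENCODE sequences (GRCh38) were matched by symbol, and no coordinates of hg19 are printed.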

Additional observations from a re-analysis of the deposited data

How the results depend on the processing

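The values of the called members were followed through the alternatives, except those of HIST1H2AH and HIST1H2BF. None of the members so followed changed direction. The median over members for the knockdown in DMSO, -0.05, was 0.02 without control in DMSO replicate 3. In all, 55 of the alternative values for the members so followed no longer passed the threshold. Of the 46 members, a filter of 5 CPM in 3 libraries left 3 past the threshold for the knockdown in DMSO, in place of 6, and 2 for the drugs in control cells, in place of 5, because fewer members were tested. DESeq2 gave 3 for the knockdown in DMSO, where the cause was not tested. Leaving out each of the 12 libraries gave 3 to 6 for the knockdown in DMSO (3 without knockdown in DMSO replicate 3), 11 to 18 for the knockdown under drugs (11 without control under drugs replicate 3 or knockdown under drugs replicate 1), 3 to 5 for the drugs in control cells (3 without control in DMSO replicate 2), 2 to 5 for the drugs in knockdown cells (2 without knockdown in DMSO replicate 2 or 3 or knockdown under drugs replicate 3) and 0 for the interaction. Without ribosomal RNA rows in the total, histone counts were 0.341% and 0.328% in control and knockdown cells in DMSO and 0.349% and 0.292% under drugs, a rise that follows from the smaller total.

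Libraries with the same replicate number did not deviate together (correlations from -0.116 to 0.0821), so the numbers were not taken as pairs. With the replicate block, 7, 18, 5, 4 and 0 members passed for the knockdown in DMSO, the knockdown under drugs, the drugs in control cells, the drugs in knockdown cells and the interaction, in place of 6, 18, 5, 4 and 0, and not every library correlated best with its own number. Members below about 1 CPM rest on few counts, which limits the size of change that can be seen in them.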
